A study of Mus musculus with 4 samples.

Results

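The proteasome genes of the mouse were examined in the hippocampus of C57BL/6 mice aged 12 months, as all rows of the FPKM table whose symbol starts with Psm, a letter from a to g and a digit. The rule found 48 of the 19230 genes in the table. Of these, 47 encode proteasome subunits, activators, regulators or assembly factors, and the remaining match, Psmc3ip, encodes a cofactor of meiotic recombination. RNA was measured in 4 libraries, 2 of control mice (Ctrl, replicates 2 and 3) and 2 of mice given licochalcone A (LA, replicates 1 and 2), a chalcone from liquorice root, for 30 days. No transgene or deletion is named for either group, and the dose, the route and what the Ctrl mice received were not stated in the labels. Whether each library came from its own mouse was not stated either, and each p-value then covers the spread among the 4 libraries alone, part of which may be technical.

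The proteasome is the protease that degrades ubiquitin-tagged proteins in the cytosol and nucleus. Its 20S core is a barrel of outer alpha rings, which gate the channel, and inner beta rings, which hold the catalytic sites. The 19S regulatory particle binds ubiquitin chains, removes them and unfolds the substrate with a ring of ATPases. Interferon induces the immunoproteasome, in which Psmb8 takes the place of the catalytic subunit Psmb5, Psmb9 that of Psmb6 and Psmb10 that of Psmb7. In neurons, proteasomes are found at synapses, where protein turnover is part of plasticity.

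Proteasome genes are known to be switched on together by Nfe2l1, which binds antioxidant response elements, and many of their promoters are known to hold CCAAT boxes, bound by NF-Y. The 250 bases before the start sites were therefore searched on both strands for 5 motifs in RefSeq sequences of GRCm38.p6, with 39 genes and 42 windows matched. The antioxidant response element, searched as TGACNNNGC, was in 5 of the 42 windows (11.9%, against 10.2% of all 32851 promoter windows), those of Psmb5, Psmb6, Psmc6, Psmd9 and Psmd12. CCAAT was in 14 windows (33.3%, against 33.8% of all), and the GC box GGGCGG in 23 (54.8%, against 32.7%). The interferon-stimulated element, searched as GAAA, any pair of bases and GAAA, was in 3 windows (7.14%, against 2.98%). These were those of Psmb3, Psmd4 and Psmd9, none of them an immunoproteasome subunit. The gamma-activated site, searched as TTCNNNGAA, was in 1 window (2.38%, against 7.02%), that of Psmg1. The windows of Psmb10 and Psmg3 held none of the 5 motifs. A match is a description of the letters and not a measured binding site.

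The stretches shown lie just before the genes whose values carry the results below, a catalytic subunit, an ATPase in the common pattern, the ATPase outside it and the assembly chaperone of smallest p. They are trimmed to the part without annotated exon bases, and capitals mark the motif matches on either strand. That of Psmb5, at chr14:54618023-54618245 on the minus strand, has 1 antioxidant response element, and that of Psmc4, at chr7:28050102-28050342 on the minus strand, has 2 GC boxes. That of Psmc6, at chr14:45329574-45329787 on the plus strand, has 1 antioxidant response element and 3 GC boxes, and that of Psmd10, at chrX:140956729-140956906 on the minus strand, has 2 CCAAT boxes and 1 GC box.
Psmb5: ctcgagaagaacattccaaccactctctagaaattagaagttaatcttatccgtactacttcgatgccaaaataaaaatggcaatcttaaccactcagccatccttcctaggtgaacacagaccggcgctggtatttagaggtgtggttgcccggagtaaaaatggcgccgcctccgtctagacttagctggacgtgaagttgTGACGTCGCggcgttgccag
Psmc4: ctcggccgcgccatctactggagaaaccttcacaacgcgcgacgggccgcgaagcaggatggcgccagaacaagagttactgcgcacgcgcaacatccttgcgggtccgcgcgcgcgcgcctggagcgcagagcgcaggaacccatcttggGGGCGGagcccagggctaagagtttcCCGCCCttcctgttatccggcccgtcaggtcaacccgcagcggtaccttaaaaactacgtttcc
Psmc6: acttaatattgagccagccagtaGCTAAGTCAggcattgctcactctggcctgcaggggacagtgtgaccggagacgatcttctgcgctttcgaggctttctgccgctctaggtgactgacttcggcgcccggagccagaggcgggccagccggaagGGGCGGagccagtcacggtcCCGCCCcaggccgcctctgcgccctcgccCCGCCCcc
Psmd10: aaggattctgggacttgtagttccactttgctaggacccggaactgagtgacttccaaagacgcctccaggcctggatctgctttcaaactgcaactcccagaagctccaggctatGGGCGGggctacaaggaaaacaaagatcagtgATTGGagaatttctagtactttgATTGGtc

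The 4 libraries summed to between 386945 and 441948 FPKM, and their relative depth, estimated from the smallest step of low values, was between 86.7% and 100%. The total number of reads is not known. Of the hippocampal neuron markers 10 of 10 reached a mean of 1 FPKM, with sums of 1606 and 1415 FPKM in Ctrl and 1506 and 1593 in LA. No other brain region was compared, so these values cannot tell hippocampus from other regions. Libraries differed in other tissue. Ctrl replicate 3 had 7557 FPKM of choroid plexus markers against 20.6 to 86.3 in the other 3, and leptomeningeal markers summed to 239.6 and 289.9 FPKM in Ctrl against 79.0 and 96.8 in LA. Myelin markers summed to 2217 and 1931 FPKM in Ctrl and 3441 and 4229 in LA, and microglia markers to 395 and 401 in Ctrl and 532 and 518 in LA. In bulk tissue, fewer cells of a type and less RNA per cell cannot be told apart. The part of these other cells in the proteasome values was not tested.

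No proteasome gene passed the test between LA and Ctrl, and most differed little. Of the 47, 45 reached the mean of 1 FPKM needed for the test. With limma on log2(FPKM + 1) and Benjamini-Hochberg adjustment over all 13518 tested genes, 0 of the 45 had an adjusted p under 0.05, against 0.141% of all tested genes (19 genes, each lower in LA). At an unadjusted p under 0.05 there were 2 of the 45, Psmd10 and Psmg3, against 7.80% of all. Both were higher in LA (3.74% of all tested genes) and 0 were lower (4.06% of all). The median log2 fold change of the 45 was 0.03, against -0.01 over all tested genes, and the median size without sign was 0.08, against 0.16. The fold changes ran from -0.24 to 0.46, with 27 above 0 (47.6% of all tested genes) and 18 below (52.4%). The median turned to -0.02 under quantile normalization and to -0.04 after a correction for transcript length and GC content. Without Ctrl replicate 2 it was -0.03 and without LA replicate 2 it was -0.06, against 0.07 without Ctrl replicate 3 and 0.11 without LA replicate 1. In 45 of 45 genes the 95% interval of the log2 fold change lay within -1 and 1, as it did for 90.0% of all tested genes. The lowest bound was -0.69 for Psmb9 and the highest 0.91 for Psmg3. The comparisons with all tested genes were not matched for level. In Ctrl replicate 2 the median level was 56.5 FPKM for the 45 genes, against 10.8 for all tested genes.

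**Figure D1:**
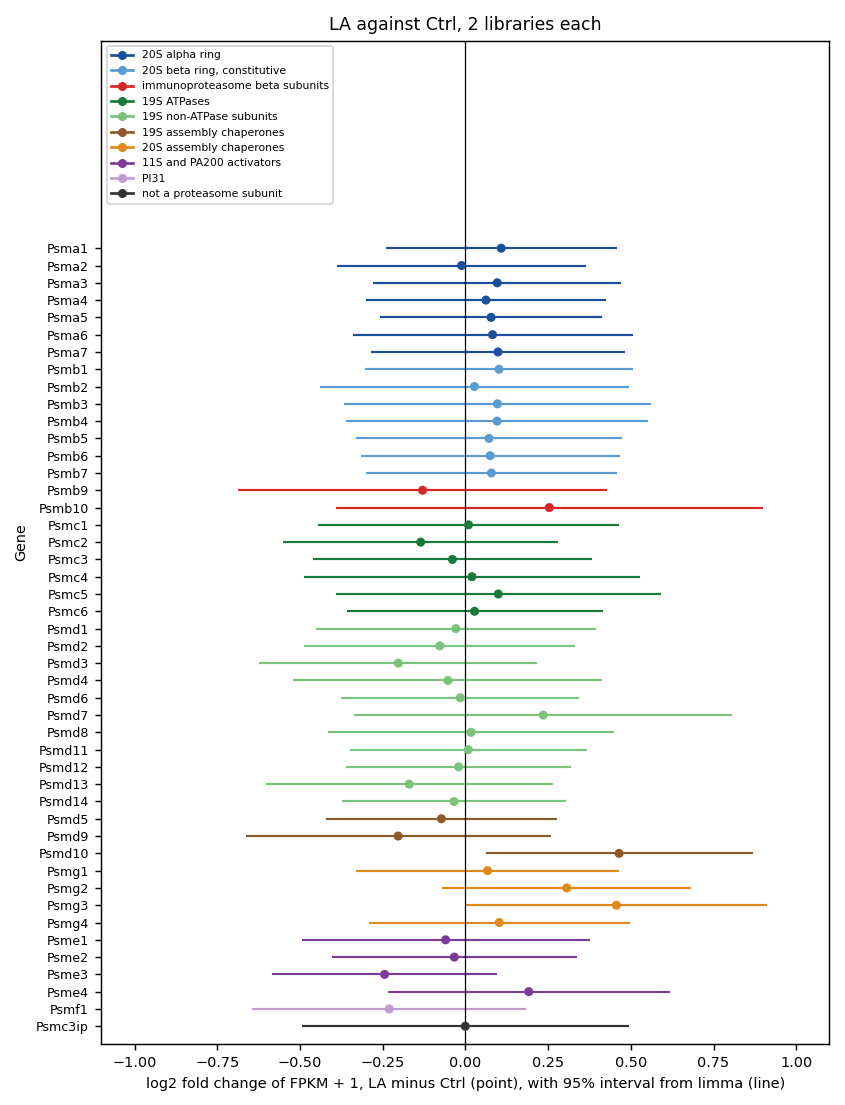
log2 fold change of FPKM + 1, LA minus Ctrl, for the 45 tested proteasome genes and Psmc3ip (points, coloured by class) with 95% intervals from limma (lines), 2 libraries in each group. Psmd10 and Psmg3, both at 0.46, are the genes whose interval lies above 0, and all intervals lie within -1 and 1.

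The spread between libraries was read against the same spread over all genes. Over the 45 genes the log2 differences between the 2 Ctrl libraries had an SD of 0.14, and those between the 2 LA libraries an SD of 0.28. Over all tested genes these SDs were 0.35 and 0.41, a comparison likewise not matched for level. The rank correlation between libraries across the 45 genes, which is a description and not a test, ran from 0.957 for the LA pair to 0.992 for the Ctrl pair. In 6 of the 45 genes both LA libraries were above both Ctrl libraries (Psma1, Psma5, Psmb7, Psmd10, Psmg2 and Psmg3), while 17.6% of all tested genes were so ordered. Both LA libraries were below both Ctrl libraries for Psme3 and Psmf1, and for 21.0% of all tested genes. Of the 45, 12 share exon bases with another gene, and reads from those stretches may have been counted for either. The largest shares of a gene's own exon bases were 25.5% for Psmd9, 12.1% for Psmb5 (with Mir686 on the same strand), 11.8% for Psmb7 (with Nek6 on the opposite strand) and 10.1% for Psmd13 (with Sirt3 on the opposite strand).

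The 14 constitutive genes of the 20S core were among the higher levels in the family and differed little between groups. The 7 alpha genes lay between 44.57 and 104.18 FPKM over all libraries, and Psma5 was the lowest of the 7 in each library. Within a library the highest alpha gene was 2.08 to 2.25 times the lowest. The 7 constitutive beta genes lay between 63.54 and 151.64 FPKM, with a ratio of highest to lowest from 1.65 to 2.39. Of the 14 log2 fold changes 13 were above 0, with a median of 0.08 in each ring and 0.08 over both. Under quantile normalization Psmb2 and Psmb7 turned to -0.02, and under median-ratio scaling Psma2 turned to 0.02. As deposited Psma2 was the exception at -0.01, with 92.99 and 101.38 FPKM in Ctrl and 101.53 and 91.34 in LA (adjusted p = 0.995, limma).

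Psma1 had the highest fold change of the alpha ring, 73.08 and 70.87 FPKM in Ctrl and 75.99 and 79.35 in LA, a log2 fold change of 0.11 (SE 0.15, adjusted p = 0.895, limma). Its groups did not overlap, but the change was smaller than its SE. In the beta ring the extremes were Psmb1, a subunit without catalytic activity, at 125.61 and 143.74 FPKM in Ctrl and 151.64 and 137.20 in LA (0.10, adjusted p = 0.930), and Psmb2, likewise without catalytic activity. Psmb2 was at 69.56 and 78.49 FPKM in Ctrl and 63.54 and 89.24 in LA (0.03, adjusted p = 0.988), so that the LA libraries stood on both sides of the Ctrl libraries.

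The catalytic subunits of the constitutive core were close to each other in fold change. Psmb5, which cleaves after hydrophobic residues, was at 67.35 and 78.02 FPKM in Ctrl and 69.52 and 83.53 in LA (log2 fold change 0.07, adjusted p = 0.952). Psmb6, which cleaves after acidic residues, was at 74.90 and 82.85 in Ctrl and 75.88 and 90.82 in LA (0.07, adjusted p = 0.948). The order of the libraries was the same for both, with Ctrl replicate 2 lowest and LA replicate 2 highest. Psmb7, which cleaves after basic residues, was at 124.28 and 132.68 in Ctrl and 134.37 and 136.93 in LA (0.08, adjusted p = 0.945). The 3 adjusted p are from limma over all tested genes.

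The fold changes of the core were not stable to a correction for transcript length and GC content. With it, the median over the alpha ring moved to -0.02 and that over the constitutive beta ring to -0.06, and Psma1, Psmb2, Psmb5, Psmb6 and Psmb7 turned to values between -0.14 and -0.02. Across the 45 genes the fold change had a rank correlation of -0.464 with transcript length, and across all genes one of -0.243, both descriptions over genes that share libraries. The beta ring median also turned to -0.0056 without Ctrl replicate 2 and to -0.06 without LA replicate 2, with 0.18 when Ctrl replicate 3 was left out and 0.20 when LA replicate 1 was.

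**Figure D2:**
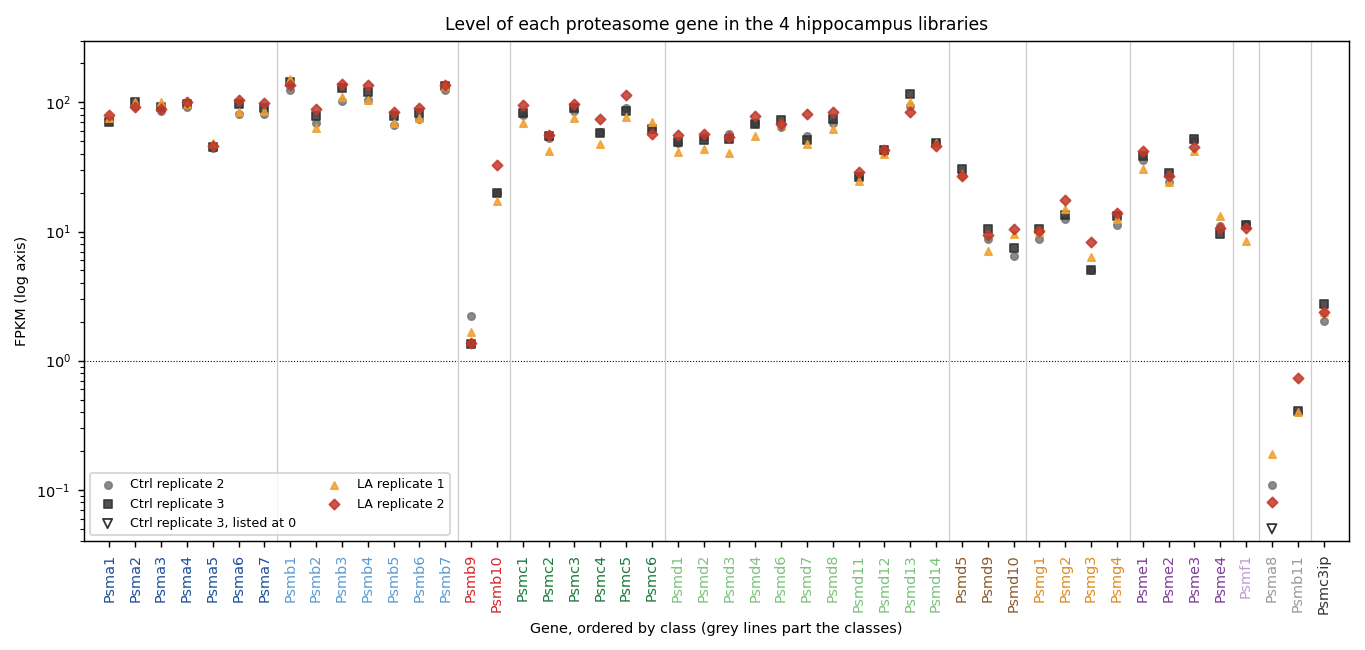
FPKM (log axis) of the 47 proteasome genes and Psmc3ip in the 4 hippocampus libraries, ordered by class, with a dotted line at 1 FPKM and an open triangle where a gene is listed at 0. The constitutive core genes lie between 44.57 and 151.64 FPKM, Psmb9 lies near the dotted line, and Psma8 and Psmb11 lie below it.

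The immunoproteasome subunits were far below their constitutive counterparts in each library. Psmb9 was at 2.21 and 1.35 FPKM in Ctrl and 1.66 and 1.37 in LA, with overlapping groups (log2 fold change -0.13, 95% interval -0.69 to 0.43, SE 0.24, adjusted p = 0.939, limma). Psmb10 was at 19.73 and 19.76 FPKM in Ctrl and 17.09 and 32.81 in LA (0.25, interval -0.39 to 0.90, adjusted p = 0.861). The Psmb10 value rested on LA replicate 2, without which the log2 fold change was -0.20. Psmb8 was not analysed here. Psmb9 shares 212 exon bases (5.79% of its own) with Tap1 on the opposite strand, and since no source says whether the libraries kept strand, reads from that stretch cannot be told apart.

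FPKM is scaled to transcript length, so levels of different genes can be set side by side, though only roughly. The ratios were not corrected for GC content, 56.5% in the longest transcript of Psmb10 and 48.7% in that of Psmb7. As a percentage of Psmb6 FPKM, Psmb9 was 2.95 and 1.63 in Ctrl and 2.19 and 1.51 in LA. As a percentage of Psmb7 FPKM, Psmb10 was 15.9 and 14.9 in Ctrl and 12.7 and 24.0 in LA. The groups overlapped for both ratios. The log2 ratio, with 1 FPKM added to each value, differed by -0.20 for Psmb9 to Psmb6 (exact two-sided permutation p = 0.667) and by 0.18 for Psmb10 to Psmb7 (exact p = 1). With 2 libraries against 2 this test cannot give a p below 1 in 3, so neither ratio could pass. Leaving out 1 library at a time moved the first from -0.50 to 0.09 and the second from -0.26 to 0.61.

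The 17 genes of the 19S regulatory particle had no common direction between the groups, and most were higher in LA replicate 2 than in LA replicate 1. The difference was above 0 in 14 of the 17 and below 0 for Psmc6, Psmd13 and Psmd14. Their median log2 fold change was -0.02, with 7 above 0 and 10 below. In 11 of the 17, LA replicate 2 was the highest and LA replicate 1 the lowest of the 4 libraries, an order found for 2 of the 14 core genes and for 9.51% of all tested genes. Over the whole family 15 of the 45 genes had it.

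The 6 ATPases, which unfold the substrate, ranged from 42.36 to 113.84 FPKM. Psmc4 was at 58.99 and 58.39 FPKM in Ctrl and 47.82 and 74.00 in LA. Psmc5 was at 89.76 and 85.29 in Ctrl and 77.25 and 113.84 in LA (log2 fold change 0.10, adjusted p = 0.946, limma), and it was the highest ATPase of the ring by fold change. In both genes the Ctrl libraries lay close together between the LA libraries. Psmc2, the lowest by fold change, was at 52.58 and 54.79 in Ctrl and 42.36 and 56.16 in LA (-0.14, adjusted p = 0.891), and Psmc1 and Psmc3 had the same order of LA replicates. Psmc6 was the reverse, at 61.84 and 61.94 in Ctrl and 70.21 and 56.72 in LA (0.03, adjusted p = 0.985).

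As a class, the ATPases deviated from their own means over the 4 libraries by medians of -0.01 and 0.0054 in Ctrl replicates 2 and 3, and by -0.23 and 0.20 in LA replicates 1 and 2, on the log2 scale. Their median fold change was 0.01, but -0.23 without LA replicate 2 and 0.20 without LA replicate 1. Leaving out an LA library therefore set its sign.

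The 11 non-ATPase subunits, which include the ubiquitin receptors and the deubiquitinase Psmd14, ranged from 24.61 to 115.15 FPKM, with 3 fold changes above 0 and 8 below (median -0.03). Psmd7, the partner of Psmd14, was at 55.16 and 50.88 FPKM in Ctrl and 48.02 and 81.35 in LA (log2 fold change 0.24, adjusted p = 0.855, limma). Psmd3, a scaffold subunit of the lid, was at 56.50 and 51.71 in Ctrl and 40.67 and 53.90 in LA (-0.20, adjusted p = 0.828). These were the extremes of the class, in both the groups overlapped, and both values rested on an LA library. Psmd7 was at -0.14 without LA replicate 2, and Psmd3 at -0.0040 without LA replicate 1 and -0.40 without LA replicate 2. The ubiquitin receptor Psmd4 was at 68.74 and 67.81 in Ctrl and 54.74 and 79.03 in LA, the same wide LA pair. Psmd14 itself varied little, at 48.26 and 48.44 in Ctrl and 48.55 and 45.86 in LA, and Psmd13 ran the other way, at 93.55 and 115.15 in Ctrl and 101.49 and 83.68 in LA.

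**Figure D3:**
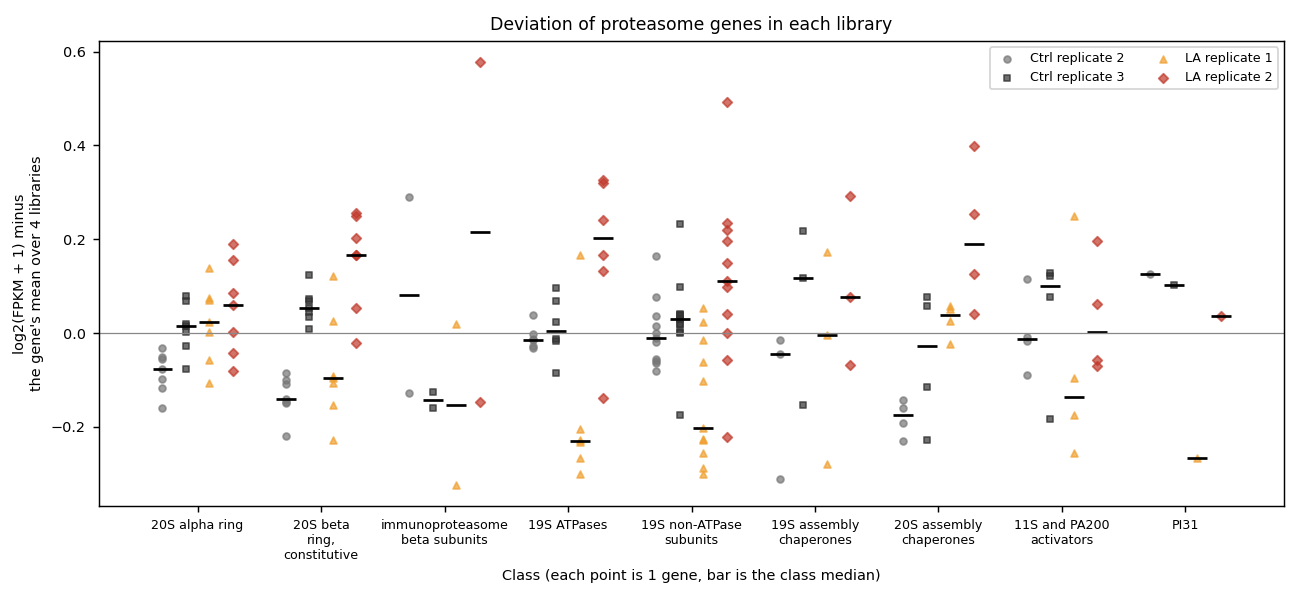
Deviation of log2(FPKM + 1) from the mean of each gene over the 4 libraries, for each class and library (points are genes, bars are class medians). The 19S ATPases sit at a median of -0.23 in LA replicate 1 and 0.20 in LA replicate 2, with both Ctrl medians near 0.

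GC content and transcript length moved with the difference between the LA libraries. Over the 45 genes, LA replicate 2 minus LA replicate 1 on the log2 scale had a rank correlation of 0.503 with the GC content of the longest transcript and of -0.178 with its length. Over the 12980 genes with a value these were 0.366 and -0.429. After correction for both, the median difference of the 14 core genes went from 0.14 to 0.0078, and that of the 17 regulatory particle genes from 0.40 to 0.34, with 13 of 17 still above 0. Over all tested genes the median was -0.07 before and -0.00092 after. The 80 tested ribosomal protein genes, measured for comparison, had a median difference of 0.51 between the same libraries, and 0.31 after correction. What set the LA libraries apart beyond these measures was not tested.

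**Figure D4:**
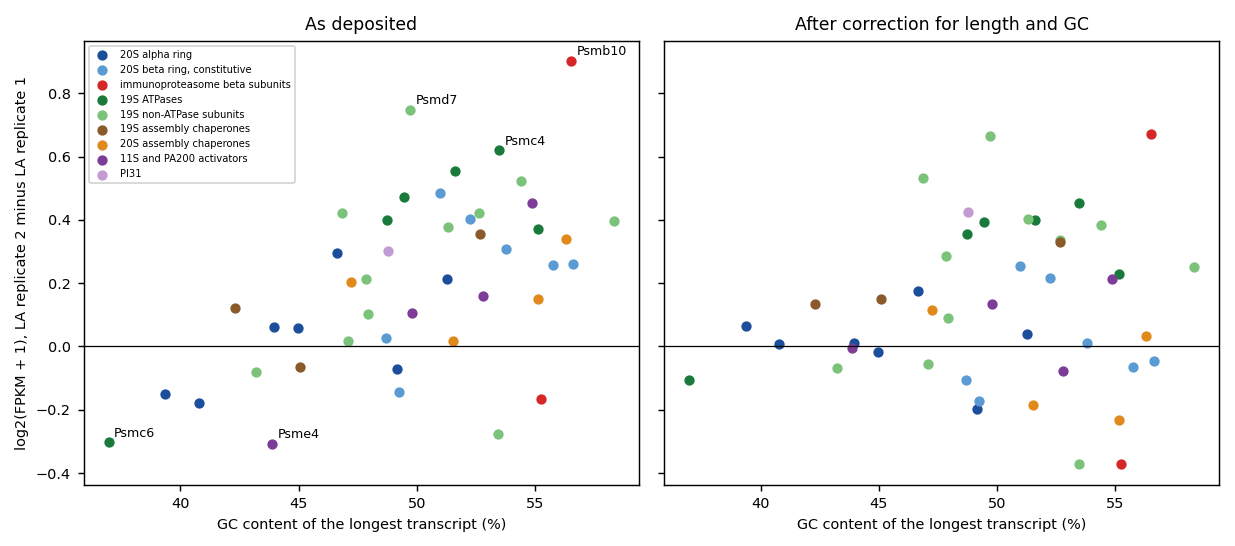
Difference between the LA libraries, replicate 2 minus replicate 1 in log2(FPKM + 1), against the GC content of the longest transcript for the tested proteasome genes, coloured by class, as deposited and after correction for length and GC content. Before correction the points climb with GC content (rank correlation 0.503). The 19S genes stay mostly above 0 after it, with a median of 0.34, while the core genes have a median of 0.0078.

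The activator Psme3 and the inhibitor Psmf1 held the lowest fold changes of the family, while the other activators did not. Psme3, which forms the nuclear PA28 gamma ring that opens the core without ubiquitin, was at 51.34 and 51.77 FPKM in Ctrl and 41.78 and 45.02 in LA. Its groups did not overlap, with a log2 fold change of -0.24 (95% interval -0.58 to 0.10, SE 0.15, adjusted p = 0.732, limma). With each library left out it ranged from -0.30 to -0.19, where the lack of overlap fixes the sign in advance. Psmf1, or PI31, which binds the core and inhibits it in vitro, was at 11.39 and 11.19 in Ctrl and 8.44 and 10.63 in LA, also without overlap (-0.23, adjusted p = 0.802). It was -0.08 without LA replicate 1.

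The interferon-inducible activator pair did not separate the groups. Psme1 was at 35.93 and 38.40 FPKM in Ctrl and 30.29 and 41.80 in LA (-0.06, adjusted p = 0.963), and Psme2 at 24.34 and 28.32 in Ctrl and 24.21 and 27.13 in LA (-0.03, adjusted p = 0.980). Their products form a ring together, and Psme1 was the higher of the pair in each library. Psme4, or PA200, an activator known from spermatogenesis, was at 10.96 and 9.60 in Ctrl and 13.30 and 10.56 in LA (0.19, adjusted p = 0.841), with overlapping groups. The median of the 4 was -0.05, and -0.16 with the correction for length and GC content.

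The highest fold changes were those of 3 assembly chaperones, factors that guide the rings together and are not part of the finished particle. Psmd10, or gankyrin, a 19S chaperone that binds Psmc4 and lies at chrX:140948425-140956711 in GRCm38, was at 6.52 and 7.39 FPKM in Ctrl and 9.51 and 10.43 in LA. Both LA libraries were above both Ctrl libraries, a log2 fold change of 0.46 (95% interval 0.06 to 0.87, SE 0.17, unadjusted p = 0.0295, adjusted p = 0.609, limma). Without 1 library at a time it ranged from 0.39 to 0.54, and after the correction for length and GC content it was 0.34. Psmg3, part of the chaperone pair that shapes the alpha ring with Psmg4 and at chr5:139823613-139826894, was at 5.02 and 5.03 in Ctrl and 6.35 and 8.30 in LA (0.46, interval 0.0016 to 0.91, SE 0.19, unadjusted p = 0.0494, adjusted p = 0.641). Psmg3 ranged from 0.29 to 0.63 without 1 library at a time. It shares 280 exon bases (9.68% of its own) with Gm26938 on the same strand, so part of its value is uncertain, as for the other genes with shared exon bases.

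Psmg2, which pairs with Psmg1 to start the alpha ring, was at 12.58 and 13.31 FPKM in Ctrl and 15.07 and 17.49 in LA, again without overlap (0.31, interval -0.07 to 0.68, adjusted p = 0.715). Psmg1 was at 8.77 and 10.37 in Ctrl and 9.98 and 10.10 in LA (0.07, adjusted p = 0.955), with overlap, and Psmg4 at 11.24 and 13.24 in Ctrl and 12.45 and 13.93 in LA. The 4 Psmg genes had a median of 0.20, with 4 of 4 above 0. It was 0.08 after the correction for length and GC content, in which Psmg1 turned to -0.05. Psmd9, another 19S chaperone, had the opposite sign to Psmd10, at 8.73 and 10.43 in Ctrl and 7.10 and 9.36 in LA (-0.20, adjusted p = 0.843). Its value was -0.03 without LA replicate 1, -0.38 without LA replicate 2, -0.32 without Ctrl replicate 2 and -0.09 without Ctrl replicate 3. It shares 25.5% of its exon bases with the lincRNA Gm26745 on the opposite strand. Psmd5, the other 19S chaperone, was at 27.28 and 30.61 in Ctrl and 28.08 and 26.80 in LA. The other 6 chaperones lay between 5.02 and 17.49 FPKM, so 1 FPKM of pseudocount shrinks their fold changes more than those of the core.

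The members near or below the filter were few. Psmb11, the thymus-specific beta subunit, was at 0.40 and 0.41 FPKM in Ctrl and 0.40 and 0.74 in LA, and Psma8, the alpha subunit of the spermatoproteasome, at 0.11 and 0.19 and 0.08 with Ctrl replicate 3 listed at 0. Neither was tested. Just above the filter were Psmb9, with a mean of 1.65 FPKM, and Psmc3ip, with 2.04 and 2.76 in Ctrl and 2.38 and 2.38 in LA.

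Genes that work with the proteasome but carry other symbols were counted in 4 lists. In each, 0 were called by limma at an adjusted p under 0.05, against 0.141% of all tested genes. At that share, lists this short would hold few or no called genes in any case. Of 11 further 19S subunits and partners, 4 had a fold change above 0 and 7 below (median -0.06). Pomp, the chaperone that joins the core rings, was at 114.77 and 120.27 FPKM in Ctrl and 136.40 and 177.60 in LA (log2 fold change 0.40, adjusted p = 0.679). Sem1, a small lid subunit, was at 48.49 and 60.69 in Ctrl and 61.37 and 66.39 in LA (0.23, adjusted p = 0.788), and like Pomp did not overlap. Adrm1, a ubiquitin receptor, had the wide LA pair of the 19S genes, at 49.42 and 51.61 in Ctrl and 34.13 and 51.87 in LA (-0.26, adjusted p = 0.814). Zfand2a, a stress-inducible partner, was at 18.16 and 18.79 in Ctrl and 15.73 and 16.09 in LA (-0.20, adjusted p = 0.788).

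Of 17 genes that control proteasome expression, 7 were above 0 and 10 below (median -0.11), and 3 had an unadjusted p under 0.05, against 7.80% of all tested genes. Syvn1, a ubiquitin ligase of the endoplasmic reticulum, was at 17.00 and 15.41 FPKM in Ctrl and 11.87 and 10.85 in LA (-0.48, adjusted p = 0.578, limma). Maff, a partner of the factors that bind antioxidant response elements, was at 0.92 and 2.36 in Ctrl and 0.48 and 0.51 in LA (-0.76, adjusted p = 0.609). Its adjusted p was 0.0245 without Ctrl replicate 2, a fit in which Ctrl was 1 library, assumed to vary like the LA pair, so the number is no check of the difference. Its Ctrl libraries differed in the same direction as the choroid plexus markers, which was not tested further. Foxo4 was at 5.04 and 4.33 in Ctrl and 6.58 and 6.71 in LA (0.43, adjusted p = 0.640), and Stat3 at 11.07 and 11.24 in Ctrl and 9.45 and 7.59 in LA (-0.36, adjusted p = 0.690). Both are transcription factors and neither overlapped. Nfe2l1 itself, named after its values were seen, was at 56.40 and 54.57 in Ctrl and 47.48 and 50.62 in LA (-0.18, interval -0.52 to 0.17, adjusted p = 0.818).

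Of 21 genes for ubiquitin, its activating and conjugating enzymes and shuttle factors, 11 were above 0 and 10 below (median 0.0023), and 2 had an unadjusted p under 0.05, against 7.80% of all tested genes. The ligase Ube3a was at 17.83 and 16.27 FPKM in Ctrl and 22.72 and 22.70 in LA (0.39, adjusted p = 0.609, limma). Rps27a, which encodes ubiquitin fused to a ribosomal protein, was at 51.10 and 57.66 in Ctrl and 63.39 and 103.35 in LA (0.57, adjusted p = 0.630). Its adjusted p was 0.04997 without LA replicate 1, where the remaining LA library was likewise assumed to vary like the Ctrl pair. It had the LA pair of the ribosomal protein genes, of which 78 of 80 were above 0. The shuttle factor Rad23b was at 78.45 and 84.52 in Ctrl and 61.54 and 72.17 in LA (-0.29, adjusted p = 0.725), and the chaperone Bag6 at 43.38 and 39.57 in Ctrl and 34.63 and 36.63 in LA (-0.21, adjusted p = 0.772).

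The genes that load proteasome peptides onto MHC class I had the lowest median of the 4 lists, -0.24, with 2 of 13 tested members above 0 and 11 below. Of the 13, 7 were lower in LA without overlap (21.0% of all tested genes) and 2 had an unadjusted p under 0.05 (7.80% of all). Tap2, a subunit of the peptide transporter, was at 4.70 and 6.56 FPKM in Ctrl and 2.86 and 2.26 in LA (-0.89, 95% interval -1.41 to -0.37, adjusted p = 0.392, limma). Its partner Tap1 was at 1.5 and 3.09 in Ctrl and 1.21 and 0.71 in LA (-0.72, adjusted p = 0.623). Both pairs of libraries stood apart, unlike those of Psmb9, the neighbour of Tap1. The class I heavy chain H2-K1 was at 20.21 and 35.91 in Ctrl and 17.58 and 18.82 in LA (-0.54, adjusted p = 0.679), and H2-D1 at 16.54 and 21.48 in Ctrl and 12.89 and 16.50 in LA (-0.35, adjusted p = 0.723). The size of these values depended on the Ctrl libraries. H2-K1 was at -0.94 without Ctrl replicate 2 and -0.14 without Ctrl replicate 3, and Tap1 at -1.07 and -0.36. H2-D1 was at -0.53 and -0.17 in the same fits. The list median was -0.51 without Ctrl replicate 2 and -0.14 without Ctrl replicate 3. Endothelial markers, of which 6 of 8 were tested, moved the same way, with sums of 24.1 and 51.2 FPKM in Ctrl and 18.0 and 14.7 in LA. Leptomeningeal markers (10 of 10) and choroid plexus markers (8 of 8, with the highest sum in Ctrl replicate 3) also had fold changes below 0. Microglia markers went the other way, with 13 of 13 above 0, as did myelin markers with 10 of 10. The part of these cells in the MHC class I values was not tested.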

How the data were processed

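RNA-seq of mouse hippocampus gave 4 libraries, grouped by their titles. The authors deposited FPKM values (fragments normalised to transcript length and to all mapped fragments), with each library in its own column. TopHat2, Cufflinks and GRCm38 are named in the submitters' processing notes. Versions, strandedness, read counts and the annotation were not given in the sources used here. All value columns were mapped by name, with 0 left unmapped. Symbols that had turned into dates (11) were recovered from gene numbers, and 18293 of 19230 identifiers matched RefSeq.

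The test took the 13518 genes whose mean reached 1 FPKM. A pseudocount of 1 was added and log2 values were fitted in R 4.3.3 with limma 3.58.1 (trended eBayes, two-sided, Benjamini-Hochberg over all tested genes, threshold 0.05), so a fold change understates that of low genes. Each gene had 2 residual degrees of freedom, and the prior added 5.37. The procedure was tested on simulated data, in which the planted changes were larger than any proteasome fold change here. That test does not show how often changes of the smaller size would be found. Ratios were compared by exact permutation. The members and lists were chosen with earlier results of these data known. Named by rule were the catalytic subunits, activators and PI31, the 6 members of smallest p, the extremes of each class, members at 0 or under the filter, and up to 4 members of smallest p per pathway list. Psma5, Psmc4, Psmc6, Psmd4, Psmd5, Psmd13, Psmd14, Psmg4 and Nfe2l1 were added after their values were seen. Alternatives were other pseudocounts, filters and scalings, no trend, robust estimation, each library left out and, added after seeing the data, a spline correction with 4 degrees of freedom for length and GC content and ratios without a pseudocount.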

Additional observations from a re-analysis of the deposited data

How the results depend on the processing

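No paired analysis was possible because the groups share fewer than 2 replicate numbers. The 0 called proteasome genes were 0 in each of the 13 alternative fits, with a smallest adjusted p of 0.0713 (limma, without LA replicate 1). Depth limits the reading of low members such as Psmb9 and Psmd10, and the total read number is not known. Over all tested genes, the 19 calls became 0 without a filter, 40 with robust estimation and 2 to 227 with 1 library left out (227 without Ctrl replicate 2, 78 without Ctrl replicate 3, 177 without LA replicate 1 and 2 without LA replicate 2). Without 1 library, the sign turned in 30 of the 45 proteasome genes. The cause of these changes was not tested.

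After correction for length and GC content, an alternative added with the data in view, the median log2 fold change was -0.025 for the 20S alpha ring, -0.064 for the constitutive beta ring, -0.158 for the activators, 0.082 for the 20S chaperones and -0.051 for the control list. The same correction turned Psma1 to -0.025, Psmb2 to -0.137, Psmb5 to -0.064, Psmb6 to -0.089, Psmb7 to -0.029 and Psmg1 to -0.052. The control list had a median of -0.019 over genes of at least 5 FPKM and of -0.083 under median-ratio scaling. Median-ratio scaling also turned Psma2 to 0.018 and Psmc3ip to 0.021, and quantile normalization turned Psmb2 to -0.018, Psmb7 to -0.023 and Psmc3ip to 0.044. Psmc3ip was 0.0035 with a pseudocount of 0.1 and 0.0012 with 0.5.

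In a fit with 1 library left out, the group with a lone library takes its spread from the other pair. With each library left out in turn, the median of all 45 genes ranged from -0.060 to 0.115, and class medians ranged from 0.030 to 0.108 for the alpha ring, -0.057 to 0.203 for the constitutive beta ring, -0.122 to 0.246 for the immunoproteasome subunits, -0.226 to 0.196 for the ATPases, -0.139 to 0.111 for the non-ATPase subunits, -0.153 to 0.0078 for the 19S chaperones, 0.131 to 0.292 for the 20S chaperones and -0.199 to 0.042 for the activators. List medians ranged from -0.088 to -0.0071 for the partners, -0.130 to -0.057 for the control list, -0.122 to 0.0016 for the ubiquitin list and -0.508 to -0.144 for the MHC class I list. The control list had 0 to 1 called (Maff, without Ctrl replicate 2) and the ubiquitin list 0 to 1 (Rps27a, without LA replicate 1). Among core genes the ranges were -0.087 to 0.064 for Psma2, -0.215 to 0.269 for Psmb2, -0.060 to 0.202 for Psmb5 and -0.053 to 0.203 for Psmb6. For the inducible subunits they were -0.354 to 0.095 for Psmb9 and -0.198 to 0.705 for Psmb10. Among 19S genes they were -0.334 to 0.064 for Psmc2, -0.178 to 0.376 for Psmc5, -0.139 to 0.609 for Psmd7 and -0.552 to 0.038 for Adrm1. The others were -0.286 to 0.166 for Psme1, -0.139 to 0.072 for Psme2, -0.043 to 0.176 for Psmg1 and -0.154 to 0.153 for Psmc3ip. Psmd10, Psmg2, Psmg3 and Psme3 kept their sign throughout these 4 fits, as did Psma1 and Psmb7 among others. The groups of these genes did not overlap, which fixes the sign in advance, so this adds no support.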
